A study of Mus musculus with 12 samples.

Results

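STAT factors and the SOCS feedback genes were examined as a group of 9 genes in mouse liver: the transcription factor genes Stat2, Stat3, Stat5a, Stat5b and Stat6 and the feedback genes Socs1, Socs2, Socs3 and Cish. They were taken by gene symbol, and each of the 9 symbols had exactly 1 row among the 11289 rows of the expression table, which holds 12 mice. All mice were C57BL/6J aged 8 to 10 weeks by the sample labels, while the study's methods give younger, male animals. The control group (n = 4) was not described further, and the Con A + PBS group (n = 4) received 15 mg/kg of the T cell-activating lectin concanavalin A into the tail vein. The Con A + hWJ-MSCs group (n = 4) received the same lectin and, 30 min later, 2000000 human Wharton's jelly mesenchymal stem cells intravenously in place of PBS, and livers were taken 24 h after. The methods give a smaller number of cells than the labels, so the dose is uncertain.

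In this pathway, a cytokine or hormone brings receptor chains and their Janus kinases (JAKs) together, the kinases phosphorylate a STAT protein, and the STAT enters the nucleus and binds DNA. STAT2 acts with IRF9 in the interferon response, STAT3 carries interleukin-6 family signals to acute phase genes in hepatocytes, STAT5A and STAT5B carry growth hormone and prolactin signals, and STAT6 carries interleukin-4 and interleukin-13 signals. The SOCS proteins and CISH are themselves induced by STATs and then restrain the receptors or kinases, which closes a negative feedback loop. RNA levels, which are all that was measured here, do not report STAT phosphorylation.

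Con A with PBS was accompanied by higher Socs1, Socs3, Stat2 and Stat3 and by lower Stat5b and Socs2, whereas Stat5a, Stat6 and Cish did not pass the test. The largest change was that of Socs1, from a mean of 12.3 in the control livers to 568 in the Con A + PBS livers. After hWJ-MSCs, Socs1 was lower than with PBS and was the 1 gene of the 9 to pass the test, beside 8.58% of all genes. That call was lost when any 1 of 3 mice was left out. Stat3 was lower in all 4 mice without passing the test. In bulk liver, fewer cells of a type and less RNA per cell cannot be told apart. Values are normalised scores with no unit, already brought to one distribution in every mouse by the authors, and calls needed a limma Benjamini-Hochberg adjusted p below 0.05 over all 11289 genes and a change above 1.5-fold on the log2(value + 1) scale.

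Mouse totals lay between 17649654 and 17657159, and the median gene was at 352.0 in every mouse, so that these totals do not give the sequencing depth, which is unknown. Each gene in the table reached 64 in at least 2 mice. Socs1 met that level through the Con A groups alone, its control values being 7 to 19, so that its presence in the table already required a difference from control, and its values against control are given as a description with no p. The labels number the samples 1 to 4 within a group and name no batch, and p-values measure the spread between these mice.

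Socs1, a direct inhibitor of JAK kinase activity, lies on chr16:10783808-10785536, minus strand, in mm10. Its value was 7, 19, 13 and 10 in the control mice (replicates 1 to 4), 669, 396, 471 and 735 in the Con A + PBS mice and 272, 149, 165 and 249 in the Con A + hWJ-MSCs mice. The 3 groups did not overlap, the cell-treated mice lying between the others. Con A + PBS mice were 5.46 ± 0.30 (SE) above control on the log2 scale, or 44.0-fold. With a pseudocount of 10 the log2 change was 4.68, since control values were low. Compared with Con A + PBS, the cell-treated mice differed by -1.44 ± 0.30 (95% interval -2.09 to -0.80), a 2.72-fold lower level (limma, Benjamini-Hochberg adjusted p = 0.0224). That call was lost without Con A + PBS replicate 1 (limma, Benjamini-Hochberg adjusted p = 0.0744), without cell-treated replicate 2 (0.0733) and without cell-treated replicate 3 (0.0646), with the log2 difference staying between -1.60 and -1.30 over all 12 omissions of 1 mouse. After hWJ-MSCs, Socs1 was 4.02 log2 units above control.

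Socs3, which binds gp130-type receptors and restrains interleukin-6 signalling, lies on chr11:117966079-117969186, minus strand. Control mice had values of 158, 382, 354 and 672, Con A + PBS mice 1483, 1435, 1374 and 1944, and Con A + hWJ-MSCs mice 1170, 770, 982 and 1665. All Con A mice of both groups were above all controls, but the cell-treated mice overlapped with the PBS mice. The rise with Con A + PBS was 2.15 ± 0.35 on the log2 scale, or 4.45-fold (limma, Benjamini-Hochberg adjusted p = 2.78e-04). After hWJ-MSCs the difference from PBS was -0.49 with a 95% interval of -1.25 to 0.28, which includes a more than 2-fold fall and a small rise (limma, Benjamini-Hochberg adjusted p = 0.345).

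Stat2, the interferon-pathway STAT, lies on chr10:128270576-128292849, plus strand. Values were 1300, 1322, 1807 and 1275 in control, 3006, 3400, 3400 and 2900 with Con A + PBS and 3801, 2971, 2727 and 3400 with Con A + hWJ-MSCs. Both Con A groups were above every control mouse and overlapped each other. The change with Con A + PBS was 1.17 ± 0.14 on the log2 scale (limma, Benjamini-Hochberg adjusted p = 2.93e-05). Between the cell-treated and PBS mice the log2 difference was 0.01, with a 95% interval of -0.29 to 0.32 (limma, Benjamini-Hochberg adjusted p = 0.957).

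Promoters of these 3 genes are shown because, among the 8 members with an entry in the RefSeq promoter table (GRCm38.p6), they are the ones whose 250 bases before the start hold a STAT or interferon motif. Socs2 had no entry. The motifs, searched on both strands, were TTCNNNGAA (the core of a gamma-activated site), TTCNNNNGAA (the spacing STAT6 prefers) and GAAANNGAAA (the core of an interferon-stimulated response element). Capitals mark the matches, and each sequence reads 5′ to 3′ on the strand of its gene. The RefSeq start lies 78 bases from the table's for Stat2 and 180 for Socs3, and at the same base for Socs1.
Stat2, chr10:128270248-128270497, plus strand: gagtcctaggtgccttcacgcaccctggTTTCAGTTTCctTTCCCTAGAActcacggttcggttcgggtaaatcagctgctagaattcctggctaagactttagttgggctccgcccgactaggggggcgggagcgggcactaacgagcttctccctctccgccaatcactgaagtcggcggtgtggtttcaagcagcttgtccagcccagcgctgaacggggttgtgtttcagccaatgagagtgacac
Socs1, chr16:10785537-10785786, minus strand: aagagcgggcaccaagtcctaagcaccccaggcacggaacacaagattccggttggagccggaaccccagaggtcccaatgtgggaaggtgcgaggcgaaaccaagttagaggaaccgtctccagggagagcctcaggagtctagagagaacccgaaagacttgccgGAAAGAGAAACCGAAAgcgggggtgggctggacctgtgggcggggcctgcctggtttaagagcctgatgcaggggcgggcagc
Socs3, chr11:117969367-117969616, minus strand: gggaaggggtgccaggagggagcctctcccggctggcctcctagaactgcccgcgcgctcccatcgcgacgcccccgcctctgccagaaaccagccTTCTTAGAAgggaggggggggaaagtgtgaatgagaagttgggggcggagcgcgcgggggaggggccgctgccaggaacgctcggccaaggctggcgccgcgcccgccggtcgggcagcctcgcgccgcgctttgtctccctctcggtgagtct

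The Socs3 window held 1 gamma-activated site core, TTCTTAGAA, 154 bases before the start. In the Socs1 window, GAAAGAGAAA and GAAACCGAAA overlapped, 83 and 77 bases before the start. The Stat2 window held the response element core on the reverse strand (TTTCAGTTTC, 222 bases before the start) and TTCCCTAGAA with the STAT6 spacing. Of 32851 windows of the same length, 7.02% held the gamma-activated site core, 5.85% the STAT6 spacing and 2.98% the response element core, against 1, 1 and 2 of the 8 members. These letter matches are a description of the windows, and binding was not measured.

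Stat3 lies on chr11:100885098-100939404, minus strand. Its value was 1831, 3576, 2805 and 3681 in control mice, 6287, 4720, 4810 and 7571 with Con A + PBS and 3520, 2993, 3576 and 4258 with Con A + hWJ-MSCs. Con A + PBS mice were above every mouse of the other groups, and the cell-treated mice overlapped with control. Con A with PBS raised Stat3 by 1.00 ± 0.22 on the log2 scale (limma, Benjamini-Hochberg adjusted p = 0.00237). The cell-treated mice were 0.69 log2 units below PBS (log2 difference -0.69, 95% interval -1.17 to -0.20), which did not pass after adjustment (limma, Benjamini-Hochberg adjusted p = 0.0579). Fitted on the 8 mice of that comparison alone it did pass, with an adjusted p of 0.0448 in limma.

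Stat5b, the main growth hormone STAT of the liver, lies on chr11:100780731-100822528, minus strand. Values fell from 1368, 1728, 1359 and 1876 in control mice to 800, 978, 910 and 621 with Con A + PBS, and were 888, 904, 754 and 756 with Con A + hWJ-MSCs. Every Con A mouse of either group was below every control. The log2 change was -0.94 ± 0.16 with Con A + PBS (limma, Benjamini-Hochberg adjusted p = 2.93e-04). Cell-treated and PBS mice differed by 0.01 (95% interval -0.32 to 0.35; limma, Benjamini-Hochberg adjusted p = 0.967).

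Stat5a, its close paralogue on chr11:100859351-100885169, plus strand, was at 202, 380, 416 and 378 in control mice, 264, 286, 258 and 228 with Con A + PBS and 197, 230, 148 and 246 with Con A + hWJ-MSCs. Control replicate 1 was the low control, and the groups overlapped in all 3 comparisons. Con A + PBS differed from control by -0.36 (95% interval -0.83 to 0.11; limma, Benjamini-Hochberg adjusted p = 0.177). Only against control did the cell-treated mice pass, at -0.72 ± 0.22 (limma, Benjamini-Hochberg adjusted p = 0.0199), and the call was lost without any of control replicates 2 to 4 or cell-treated replicate 3 (adjusted p 0.0560 to 0.0650 in limma). Of the 150-base stretches of Stat5a, the length of the reads, 4.68% were found in Stat5b, and 3.46% of those of Stat5b in Stat5a, so reads could be split between the paralogues and both values are uncertain. The Stat5a and Stat3 transcripts also overlap by 72 bases on opposite strands, and the library kit was not described as strand-specific.

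Stat6 lies on chr10:127642986-127660957, plus strand, and varied least of the 9. Its values were 785, 834, 1021 and 1002 in control, 1114, 1132, 1204 and 891 with Con A + PBS and 1108, 1120, 868 and 943 with Con A + hWJ-MSCs. The groups overlapped throughout. The log2 difference between Con A + PBS and control was 0.25 (95% interval -0.03 to 0.54; limma, Benjamini-Hochberg adjusted p = 0.122).

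Socs2, a growth hormone-induced brake on growth hormone signalling, lies on chr10:95385362-95413109, minus strand. The table lists it by a transcript that GENCODE M21 annotates as subject to nonsense-mediated decay. Values were 444, 342, 534 and 525 in control, 112, 104, 72 and 238 with Con A + PBS and 110, 144, 82 and 95 with Con A + hWJ-MSCs. All Con A mice of either group were below all controls. Con A with PBS changed Socs2 by -1.92 ± 0.30 on the log2 scale, or 3.80-fold (limma, Benjamini-Hochberg adjusted p = 2.12e-04). Between cell-treated and PBS mice the difference was -0.17, with a 95% interval of -0.83 to 0.49 (limma, Benjamini-Hochberg adjusted p = 0.715).

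Cish, a STAT5-induced inhibitor of cytokine receptors, lies on chr9:107296026-107301987, plus strand. Its values were 154, 226, 185 and 380 in control, 342, 363, 236 and 444 with Con A + PBS and 318, 195, 166 and 142 with Con A + hWJ-MSCs. The groups overlapped in every comparison. Log2 differences were 0.60 for Con A + PBS against control (95% interval -0.05 to 1.25; limma, Benjamini-Hochberg adjusted p = 0.106) and -0.79 for the cell-treated against PBS mice (95% interval -1.44 to -0.13; limma, Benjamini-Hochberg adjusted p = 0.0883).

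**Figure D1:**
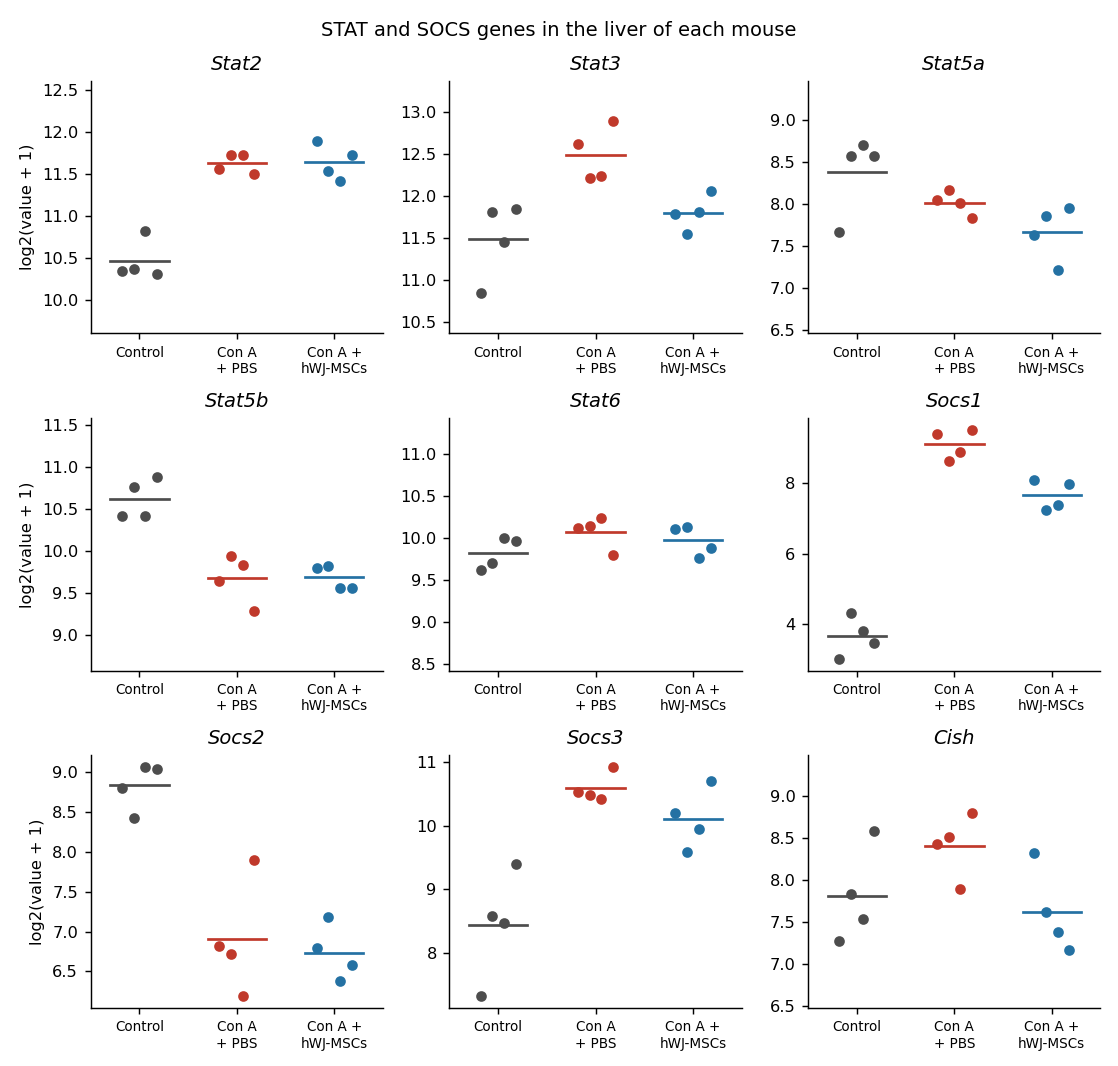
Log2(value + 1) of each of the 9 genes in the 12 mice by group, 4 a group (1 point a mouse, line at the group mean). Socs1 rises from 7 to 19 in control to 396 to 735 with Con A + PBS and sits at 149 to 272 after cells, while Stat6 overlaps in all groups.

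Against control, Con A + PBS mice gave 6 calls among the 9 genes, 4 upward and 2 downward, beside 38.8% of all genes (19.5% up and 19.2% down). Socs1 is among them, as it is among the calls of cell-treated mice against control, and its entry into the table required that difference. The mice of the 2 groups did not overlap for the same 6 genes, beside 50.4% of all genes (27.1% higher and 23.4% lower). The median log2 difference of the 9 was 0.60, against 0.05 over all genes. After hWJ-MSCs, 1 of the 9 was called against PBS, beside 8.58% of all genes (4.20% up and 4.38% down, 969 genes in all), and 2 of 9 (Socs1 and Stat3) did not overlap, both lower, beside 23.5% (11.9% higher and 11.6% lower). The calls of this comparison rested on single mice: over all genes they numbered 7 without Con A + PBS replicate 1, 18 without cell-treated replicate 2, 7 without cell-treated replicate 3 and 1575 without Con A + PBS replicate 2. The median of the 9 was -0.36, against 0.00024 over all genes. Cell-treated mice against control gave 6 calls of 9 (Stat2, Socs1 and Socs3 up, and Stat5a, Stat5b and Socs2 down), beside 26.7% of all genes (13.6% up and 13.1% down), with 5 of 9 not overlapping beside 37.9% (20.6% higher and 17.3% lower). With hWJ-MSCs, Stat2 and Stat5b stood within 0.35 log2 units of the PBS mice by their 95% intervals, while the intervals of Stat3, Socs3 and Cish reached beyond a 2-fold fall. The comparisons share mice, so they are not independent.

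**Figure D2:**
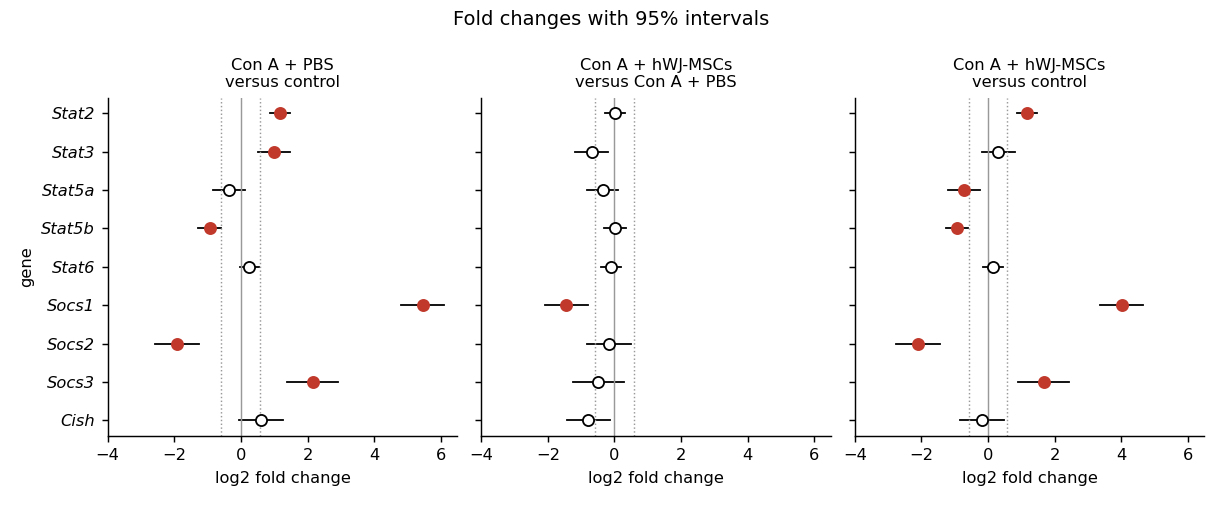
Log2 fold change of the 9 genes, with 95% limma intervals, in the comparisons of Con A + PBS with control, of cell-treated with PBS mice and of cell-treated with control mice; red marks calls, and dotted lines mark 1.5-fold. In the cell comparison, Socs1 alone is called, at -1.44.

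The 6 ratios taken within each mouse compare 2 members without scaling between mice, although the authors' normalisation is not a simple scaling. The log2 ratio of Socs1 to Socs3 averaged -4.79 in control, -1.49 with Con A + PBS and -2.44 with hWJ-MSCs, and the groups did not overlap. The log2 ratio of Socs3 to Stat3, inhibitor to factor, was -3.05, -1.89 and -1.69 in the same order. The log2 ratio of Socs2 to Cish, both STAT5-induced, was 1.03, -1.50 and -0.89. Of 12 comparisons, 5 gave the smallest p that 4 against 4 mice allow, 0.0286 (exact permutation, two-sided), and none passed after Benjamini-Hochberg adjustment over the 12 (adjusted p = 0.0686, exact permutation). Those 5 were Socs3 to Stat3, Socs1 to Socs3, Cish to Stat5b and Socs2 to Cish with Con A + PBS against control, and Socs1 to Socs3 with hWJ-MSCs against PBS. The ratio of Socs1 to Socs3 against control carries the difference that Socs1 needed to be in the table. Its p is therefore counted only as 1 of the 12 and is not read as a result. At this size, at least 7 of the 12 would have had to reach that p for any to pass.

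**Figure D3:**
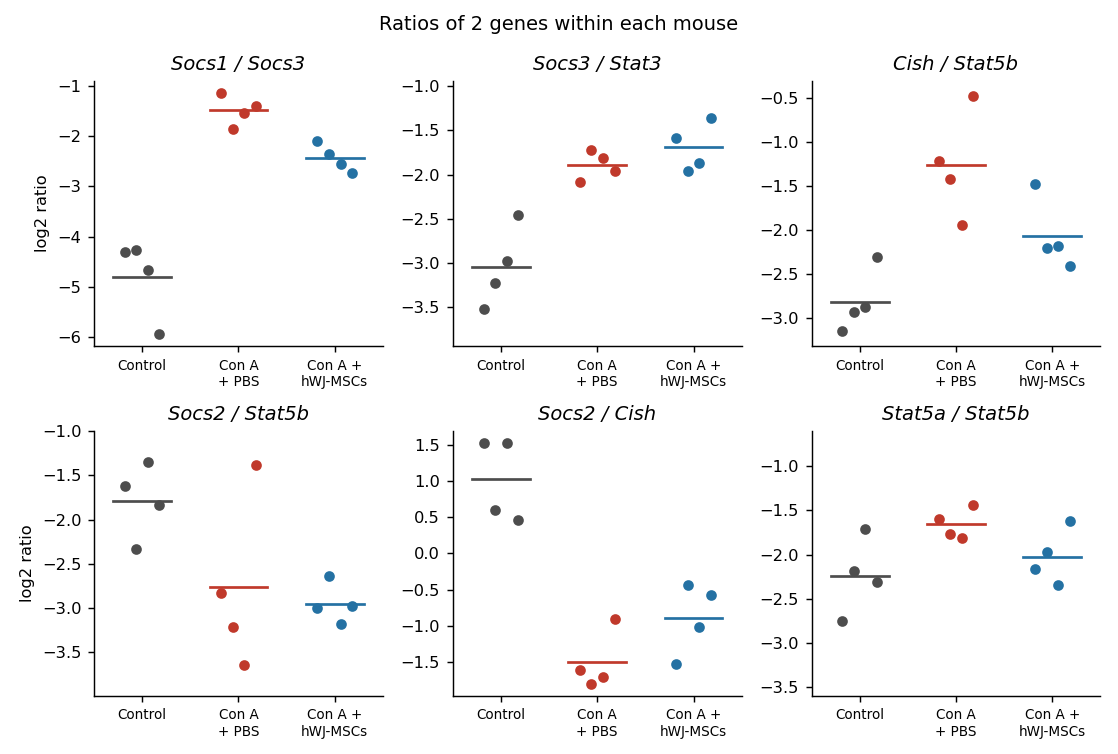
Log2 ratio of 2 members within each mouse, for 6 ratios in the 3 groups (1 point a mouse, line at the group mean). The Socs1 to Socs3 ratio separates all 3 groups, with means of -4.79, -1.49 and -2.44, but Socs1 is in the table only through Con A mice.

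Genes of the pathway called below between cell-treated and PBS mice share that dependence on single mice: without Con A + PBS replicate 1, cell-treated replicate 2 or cell-treated replicate 3, 0 genes of any pathway list were called in that comparison. Upstream, all 4 Janus kinases had a row. Jak3, the kinase of the common gamma chain receptors, rose by 0.62 with Con A + PBS (limma, Benjamini-Hochberg adjusted p = 0.00235). Jak1 and Jak2 passed on p but not on size, at 0.34 and 0.41 log2 units (limma, Benjamini-Hochberg adjusted p = 0.00697 and 0.0112), and Tyk2 was at 0.03. With cells, none of the 4 was called, although Jak1 again passed on p and not on size, at -0.38 log2 units from PBS with all 4 mice lower (limma, Benjamini-Hochberg adjusted p = 0.0268). Of the other SOCS genes, Socs5 rose by 0.90 (limma, Benjamini-Hochberg adjusted p = 2.09e-04), from 126.5 ± 10.8 to 238 ± 41.3 (SD, n = 4), while Socs4 (-0.08), Socs6 (0.34) and Socs7 (0.28) were not called.

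Among the 21 receptor chains with a row, of 25 listed, 10 rose and 4 fell with Con A + PBS (median 0.52), beside 19.5% and 19.2% of all genes. Of the 10, Il2rg, Il2rb and Csf3r needed the Con A mice to be in the table. Osmr, the oncostatin M receptor, rose by 2.71 (limma, Benjamini-Hochberg adjusted p = 1.87e-06) and Lepr, the leptin receptor, by 2.75 (limma, Benjamini-Hochberg adjusted p = 0.00103). Prlr, the prolactin receptor, changed by -3.12, and Ghr, the growth hormone receptor, by -2.25 (limma, Benjamini-Hochberg adjusted p = 4.86e-08 and 5.54e-06). After hWJ-MSCs, Csf2rb and Il22ra1 were called lower than with PBS and none higher, beside 4.38% and 4.20% of all genes. Il2rb was also lower, but it reached 64 in 4 Con A + PBS mice and 1 cell-treated mouse. Its entry thus rested on the PBS group and no test is given. Over the 12 omissions of 1 mouse, Csf2rb kept its call in 8 and Il22ra1 in 6. Without Con A + PBS replicate 2, 4 chains were called lower and 2 (Ifnar2 and Ghr) higher. Without cell-treated replicate 4, 3 were called lower and 1 (Ifnar2) higher. Lif, the 1 cytokine of 15 listed that had a row, was at 1, 2, 0 and 0 in control, 68, 54, 42 and 84 with Con A + PBS and 16, 6, 10 and 18 with hWJ-MSCs. The 3 groups did not overlap, but Lif reached the table's floor of 64 in 2 Con A + PBS mice alone, so a high level in that group was a condition of its entry and no test is given.

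Of 11 other inhibitors with a row, 5 rose and 2 fell with Con A + PBS, beside 19.5% and 19.2% of all genes (median 0.03, against 0.05 over all genes). Usp18, which restrains interferon receptors, rose by 3.54 and Ptpn2, a JAK and STAT phosphatase, by 1.40 (limma, Benjamini-Hochberg adjusted p = 2.13e-07 and 1.06e-04), while Sh2b3 changed by -0.85 and Pias3 by -0.61 (limma, Benjamini-Hochberg adjusted p = 7.25e-05 and 0.0182). With cells, Usp18 and Ptpn11 were called lower and none higher, beside 4.38% and 4.20% of all genes. Over the 12 omissions of 1 mouse, Usp18 kept its call in 2 and Ptpn11 in 6.

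Downstream, all 13 STAT2 partner and interferon-stimulated genes with a row rose with Con A + PBS, beside 19.5% of all genes (median 3.69, with Oas3 in the table only through Con A mice), Rsad2 by 5.49 and Isg15 by 4.58 (limma, Benjamini-Hochberg adjusted p = 3.35e-06 and 1.58e-07). After cells, 4 of the 13 (Ifit1, Rsad2, Usp18 and Isg15) were called lower than with PBS and none higher, beside 4.38% and 4.20% of all genes. Over the 12 omissions of 1 mouse this count ran from 0 to 5, and Rsad2 kept its call in 8, Ifit1 in 3, and Isg15 and Usp18 in 2 each. Of 18 acute phase and early genes linked to STAT3, 13 rose and none fell with Con A + PBS, beside 19.5% and 19.2% of all genes (median 1.36). Saa3, an acute phase protein, was 10.09 log2 units higher, but it is in the table only through Con A mice, which Myc also needed. Saa2 was 7.22 log2 units higher, a value limited by the table's maximum of 341028, which it reached in 3 of 4 Con A + PBS mice and all 4 cell-treated mice. With cells, 5 of the 18 were called lower, beside 4.38% of all genes: the kinase gene Pim1, the transcription factor genes Cebpb, Junb and Myc, and the survival factor gene Bcl2l1. That count ran from 0 to 6 over the omissions, with Myc called in 9 and Bcl2l1 in 2 of 12. Hp, Fga and Fgb were at that maximum in all 8 Con A mice, and Fgg was at 147432 in all 8, where differences cannot be seen. Saa1 and Lcn2 also held a repeated value in most Con A mice (147628 and 72682). No contrast with the other genes of the list can therefore be drawn.

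Growth hormone targets linked to STAT5 went down with Con A + PBS in 7 of 13 and up in 1, beside 19.2% and 19.5% of all genes (median -0.70). With cells, Onecut1, a hepatocyte transcription factor, was called lower than with PBS (limma, Benjamini-Hochberg adjusted p = 0.0255), beside 4.38% of all genes. Its level was 462.5 ± 57.9 with PBS and 242 ± 78.0 with cells (SD, n = 4). No other gene of the list was called in the fit of all mice. Onecut1 kept its call in 8 of the 12 omissions of 1 mouse. Igfals was called higher without Con A + PBS replicate 2 and without cell-treated replicate 4. Hsd3b5, a male-predominant liver enzyme, was at 8, 130, 132 and 141 in control, 6, 5, 3 and 0 with Con A + PBS and 2, 8, 0 and 0 with hWJ-MSCs. Control replicate 1 was near the Con A mice for this gene. Its log2 difference between Con A + PBS and control was -4.25, with no test given, since Hsd3b5 and Elovl3 are in the table through control mice alone. Igfals, which carries circulating IGF-1, changed by -3.66 (limma, Benjamini-Hochberg adjusted p = 5.55e-06), while Serpina3k rose by 2.23, all 8 Con A mice being at the maximum of 341028. Of the 5 STAT6-linked genes with a row, of 12 listed, Chil3 rose by 3.07 and Mrc1 changed by -2.59 with Con A + PBS (limma, Benjamini-Hochberg adjusted p = 6.49e-07 and 1.20e-05). None of these 5 was called with cells.

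**Figure D4:**
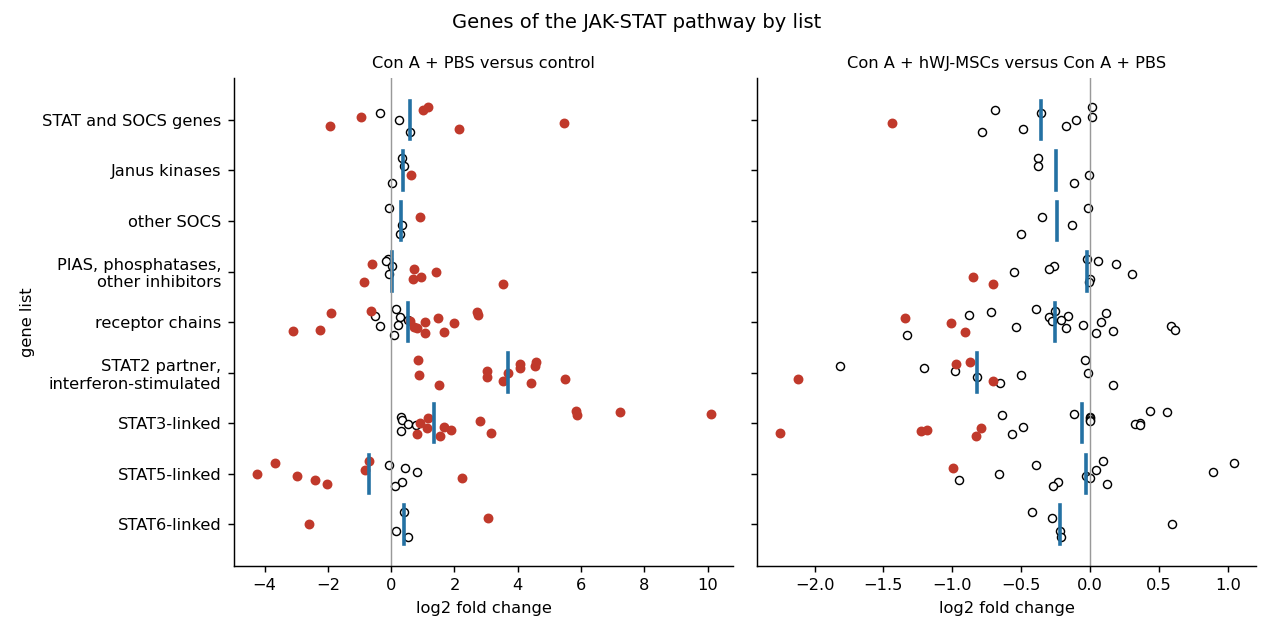
Log2 fold change of each listed gene of the pathway in Con A + PBS against control and in Con A + hWJ-MSCs against Con A + PBS (red points called, open points not, blue bar the median of the list). Interferon-stimulated genes rise in all 13 with Con A + PBS, and growth hormone targets have a median of -0.70.

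Markers of liver cell types were counted beside the 19.5% of all genes called up and 19.2% called down with Con A + PBS. Summed hepatocyte markers were 930475 to 1294468 in control, 534632 to 569948 with Con A + PBS and 583674 to 656720 with cells. Each gene is capped at the table's maximum of 341028, which can limit such sums. With Con A + PBS, 4 of 7 hepatocyte markers were called down. Neutrophil markers summed to 70 to 163, 994 to 1996 and 845 to 1813 in the same order, with 7 of 7 called up, all 7 needing the Con A mice to be in the table. Monocyte markers ran from 421 to 572, from 5263 to 6654 and from 2354 to 3912, with 5 of 6 up, 2 of them (Ly6c2 and Cd14) in the table only through Con A mice. Cd14 alone ran from 4032 to 5380 with Con A + PBS and from 1009 to 2784 with cells, and without it the sums overlapped (1190 to 1308 and 949 to 1837). Macrophage markers went from 6367 to 10014 in control to 2030 to 3020 with Con A + PBS and 1141 to 3066 with cells, with 9 of 10 down and Cd68 up. Endothelial markers were 5 of 8 down and 1 up (Lyve1), and stellate markers 3 of 7 down. Of 12 T and NK markers listed, only 4 had a row, and all 4 were up, each in the table only through Con A mice. Of 5 B cell markers listed, 1 had a row and was down. Of 4 cholangiocyte markers listed, 2 had a row, with 1 up. Among the markers called down, Vsig4, Clec4g and Oit3 needed the control mice to be in the table. Markers with no row under their symbols, among them Cd3e, Cd4, Ms4a1, Krt7 and Krt19, were not analysed here. After hWJ-MSCs against PBS, 4.20% of all genes were called higher and 4.38% lower. Beside those shares, no hepatocyte, macrophage, neutrophil or T and NK marker was called. T and NK sums overlapped, at 480 to 955 with PBS and 506 to 828 with cells. With 1 mouse left out, macrophage calls ran from 0 to 3 higher and 0 to 1 lower, and hepatocyte calls from 0 to 1 higher. Cd14 was called lower among monocyte markers, and among endothelial markers Stab2 was called higher and Lyve1 and Cdh5 lower. Over the 12 omissions of 1 mouse, Cd14 kept its call in 10, Lyve1 in 9, Stab2 in 8 and Cdh5 in 3, and the endothelial calls were all lost without Con A + PBS replicate 1, cell-treated replicate 2 or cell-treated replicate 3. The part of these markers in the values of the 9 genes was not tested.

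The genes nearest to each member over the 12 mice, by the root mean square difference of mean-centred log2 values, were Tax1bp1 and Ints2 for Stat2 (0.135 for both), Ppp4r1 and Myo1c for Stat3 (0.0888 and 0.104), Ube2h and Asap2 for Stat5b (0.0976 and 0.119), Setd1b and Zfp955a for Stat5a (0.163 and 0.177) and Ckap5 and Capn1 for Stat6 (0.108 and 0.110). For the feedback genes they were Slc16a3 and Il1rn for Socs1 (0.372 and 0.418), Apoe and Txnrd3 for Socs2 (0.281 and 0.291), Il1r1 and Fndc3b for Socs3 (0.338 and 0.357) and Mapkapk3 and Ptpre for Cish (0.279 and 0.299). The members' own root mean square distance from their mean was 2.35 for Socs1 and 0.192 for Stat6, the highest and lowest of the 9. These are descriptions of likeness over 12 mice that share the same groups.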

How the data were processed

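RNA of 12 mouse livers was sequenced as 150-base paired-end poly(A) libraries. The submitters' processing notes name mm10, Bowtie2 2.2.1 and RSEM 1.2.18, and the methods name DESeq2 for the authors' own comparisons, which were not used. The deposited values are whole-number scores, already normalised between mice by the authors; that step is not given in the sources used here. They are not raw counts, although labelled so, and were not tested as counts. Log2(value + 1) was fitted with limma 3.58.1 (R 4.3.3; lmFit and eBayes with a trend) on all 12 mice and all 11289 genes, with Benjamini-Hochberg adjustment and a minimum change of 1.5-fold. The fit was tested on simulated data. Ratios within a mouse were compared by exact permutation of mice, two-sided. The members and the gene lists were chosen with earlier results of these data known. All members were named, as were all Janus kinases and other SOCS genes, and, in each other list, the 2 genes most changed by Con A in each direction; genes named for falling after hWJ-MSCs were the calls themselves. Positions are those of the table, in mm10.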

Additional observations from a re-analysis of the deposited data

Results flagged for a closer look

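In 2 of the 27 groups of 4 mice (9 genes, 3 groups), 1 mouse stood apart from the others by Dixon's ratio at its 95% critical value, which chance passes in about 1 group in 20. In control, Stat2 had a ratio of 0.896, replicate 3 being high (1807 against 1275 to 1322). Stat5a in control had a ratio of 0.867, replicate 1 being low (202 against 378 to 416). Without control replicate 3, the Stat2 log2 change with Con A + PBS was 1.29, and without control replicate 1 that of Stat5a was -0.60, which then passed (limma, Benjamini-Hochberg adjusted p = 0.0090).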

How the results depend on the processing

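Depth is unknown, and values at the shared maximum, or repeated at another high level, hide differences. No call changed direction under the alternatives run. Of the 9 genes, 1 was called between cell-treated and PBS mice, beside 969 of all 11289 genes. This was 2 (Socs1 and Stat3), beside 722, in the fit of only the 8 mice compared. It was 3 (with Cish), beside 1697, by unadjusted p, and 2, beside 1297, with a replicate block. Leaving out 1 mouse gave 0 to 2 calls between cell-treated and PBS mice, beside 7 to 1575 of all genes. The count was 0 without Con A + PBS replicate 1, cell-treated replicate 2 or cell-treated replicate 3. It was 2 without control replicate 1 or Con A + PBS replicate 2. With 1 mouse left out, Con A + PBS against control kept 6 to 7 calls, beside 4093 to 4575 of all genes. Cell-treated against control kept 5 to 6, beside 2654 to 3254 of all genes. Above 2-fold, both had 4, beside 2391 and 1539 of all genes. No ratio passed under any setting run, which says nothing of stability: the paired test of 4 pairs cannot go below an exact p of 0.125, and the others needed 7 tests at their smallest p. The numbers in the labels belong to different animals, and the labels do not say whether same-numbered mice were handled together. Deviations of same-numbered mice correlated at -0.118 to 0.375 and were above 0.1 in 1, 2 and 1 of 4 pairs. Between cell-treated and PBS mice, the pairs numbered 2 and 4 had the highest correlations of all pairs (0.375 and 0.244, then 0.141). So few correlations cannot decide whether the numbers pair the samples. The cause of the shifts between settings was not tested.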

Other observations

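Control replicate 1 was the lowest of the 4 control mice for 6 of the 9 genes (Stat3, Stat5a, Stat6, Socs1, Socs3 and Cish), and was lowest for 33.1% of all genes. Con A + PBS replicate 4 was the highest of its group for 5 of the 9 (Stat3, Socs1, Socs2, Socs3 and Cish) and the lowest for the other 4, beside 39.8% and 36.1% of all genes. Cell-treated replicate 3 was the lowest of its group for 5 (Stat2, Stat5a, Stat5b, Stat6 and Socs2), beside 21.8% of all genes.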
